A study of Bos taurus with 18 samples.

Results

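The inhibins, activins and follistatins were followed across 4 compartments of the bovine ovary through 10 genes. They were the subunit genes INHA, INHBA and INHBB, the binding protein genes FST, FSTL1 and FSTL3, the receptor genes ACVR1B, ACVR2A and ACVR2B, and the co-receptor gene TGFBR3. The genes formed a given list, and each was read from the transcript cluster (the probes that an array summarises into 1 value) whose annotation gave that symbol alone. Each of the 10 genes had exactly 1 such cluster, among 18010 genes with a cluster of a single symbol.

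Inhibins are dimers of an alpha subunit with a beta subunit, and activins are dimers of beta subunits. Activins bind a type II receptor, which recruits a type I receptor that activates SMAD2 and SMAD3. Inhibins compete for the type II receptors with the help of the co-receptor betaglycan, and follistatin binds activins and keeps them from their receptors. In the ovary, granulosa cells are the best known source of these proteins, and in cultured theca cells inhibin raises and activin lowers androgen production.

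The tissue came from non-pregnant Bos taurus cows at an abattoir, 1 ovary per animal, and no animal was treated. Theca, the steroid-producing layer of the follicle wall, was dissected from healthy small antral follicles under 5 mm in diameter (6 arrays, 1 follicle of 1 animal each). Tunica albuginea (the fibrous layer under the ovarian surface), stroma close to follicles and interstitial stroma were cut by laser from 10 µm sections of ovarian cortex stained with cresyl violet (4 arrays each). Each laser-captured array held RNA pooled from different animals, and neither the number of animals in a pool nor whether pools shared animals is given in the sources used here. Theca RNA was extracted with a column kit and laser-captured RNA with a kit for very small samples, so in any comparison with theca the compartment cannot be told apart from the way of collection, the pooling and the RNA kit. The p-values measure the spread between these arrays.

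All values are log2 signals, on which a difference of 1 is a doubling. Every array had a median of 4.1, and a signal below 4.1 may be background, so that a difference from such a group may be a lower limit. Arrays of a compartment resembled each other, with mean correlations of 0.956 to 0.974. The theca label was checked against its markers: CYP17A1, INSL3, LHCGR, HSD3B1 and CYP11A1 together averaged 8.9 to 10.06 per theca array, against 2.88 to 3.4 in the laser-captured arrays. Both kinds of stroma carried oocyte transcripts, with a mean over 7 markers of 3.97 to 5.49 per array in stroma close to follicles and 3.6 to 4.2 in interstitial stroma. In interstitial stroma 2 of the 7 had a mean above 4.1, DAZL (5.1 to 6.4) and ZP3 (4.2 to 5.0). Between the 2 kinds of stroma 0 of the 7 passed, beside 0.0336% of all clusters called higher and 0% lower in stroma close to follicles. In tunica albuginea the oocyte mean was 3.03 to 3.29. A single symbol for STAR, a further theca marker, was not found, and STAR was not used here.

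Theca stood apart by 3 of the members. INHA, INHBA and FST were higher in all 6 theca arrays than in any of the 12 laser-captured arrays. The share of all clusters that were free of overlap in this way was not counted. By adjusted p, these 3 were called higher in theca than in the average of the laser-captured compartments, as were 19.6% of all clusters. FSTL1 was higher in theca and in tunica albuginea than in both kinds of stroma. Of the receptor genes, ACVR1B and ACVR2B were lower in theca than in stroma close to follicles, as were 15.6% of all clusters. ACVR2A and the co-receptor gene TGFBR3 were not called in any comparison with theca on the values as deposited. INHBB and FSTL3 had low signals in all compartments. More cells of a type and more RNA per cell cannot be told apart in such bulk samples.

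**Figure D1:**
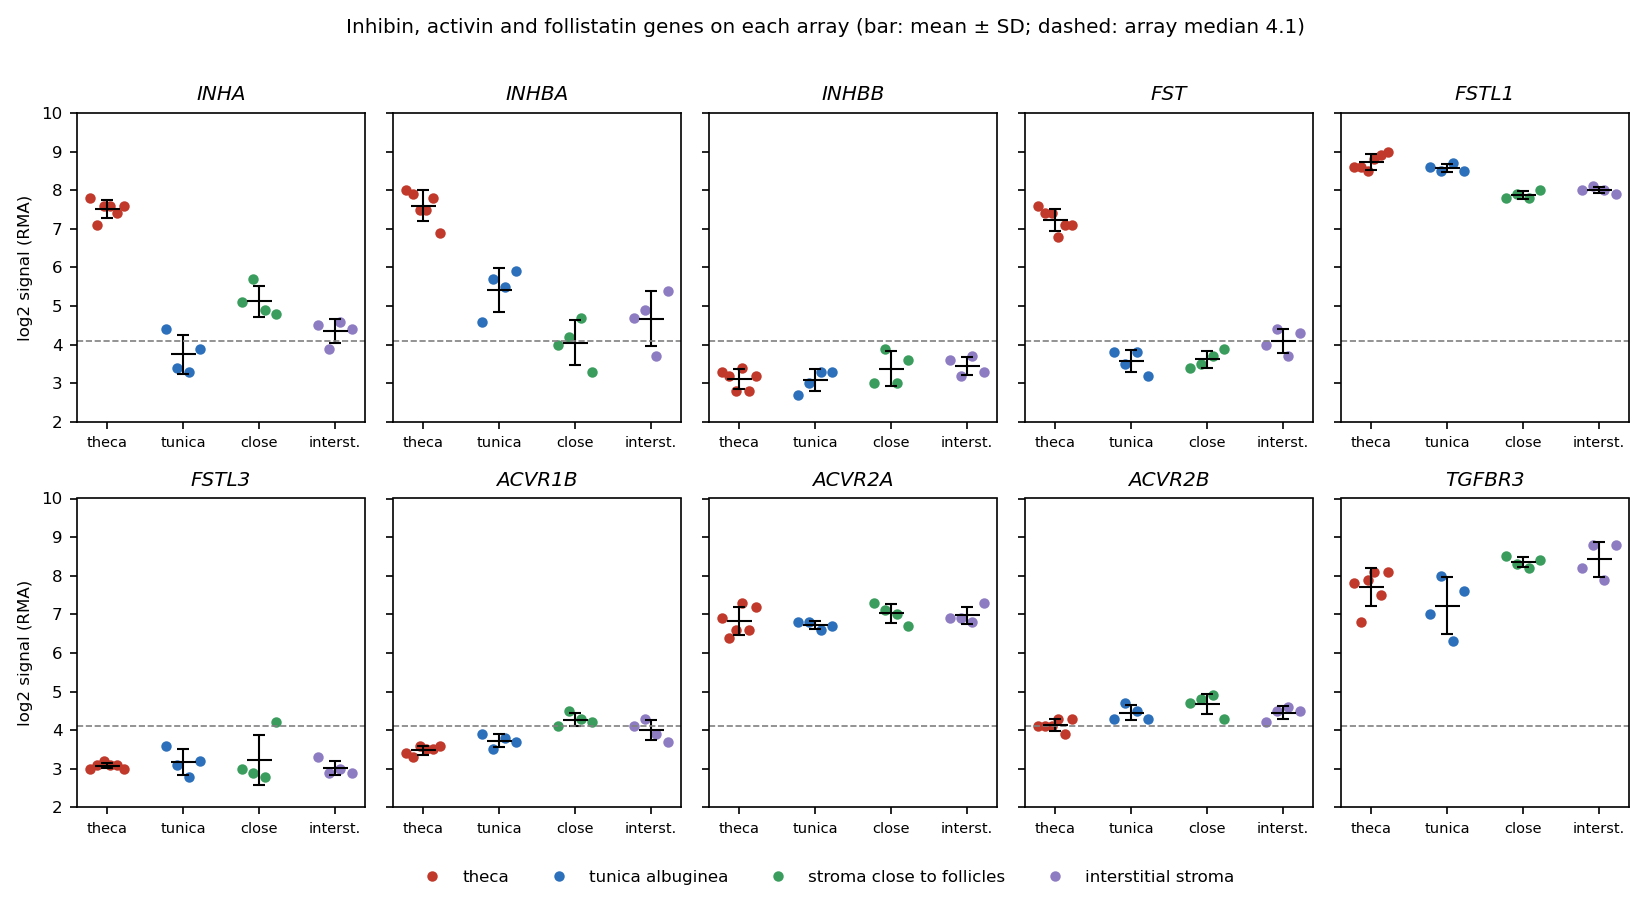
Log2 signal of the 10 genes (y axis) on each array, by compartment (x axis), with theca at the left of each panel. Points are arrays (6 of theca, 4 of each other compartment), bars are the mean ± SD, and the dashed line is the array median of 4.1. INHA, INHBA and FST in theca lie between 6.8 and 8.0, above every laser-captured array.

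INHA encodes the alpha subunit, which only inhibins contain. Its signal ranged from 7.1 to 7.8 with a median of 7.6 in theca. It was 4.4, 3.4, 3.3 and 3.9 in tunica albuginea. The values were 5.1, 5.7, 4.9 and 4.8 in stroma close to follicles, and 4.5, 3.9, 4.6 and 4.4 in interstitial stroma. The lowest theca array thus lay 1.4 above the highest laser-captured array, and among laser-captured tissue the stroma close to follicles was highest and tunica albuginea lowest. The log2 difference of theca was 2.39 ± 0.22 from stroma close to follicles (SE, limma adjusted p = 2.8e-07), 3.17 ± 0.22 from interstitial stroma (adjusted p = 1.2e-08) and 3.77 ± 0.22 from tunica albuginea (adjusted p = 9.8e-10). These were 5.25-fold, 8.98-fold and 13.6-fold differences. The last of them may be a lower limit, since 3 of the 4 tunica arrays lay below the array median.

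INHBA encodes the beta A subunit, which is shared by inhibin A and activin A. Its signal ranged from 6.9 to 8.0 with a median of 7.65 in theca. It was 4.6, 5.7, 5.5 and 5.9 in tunica albuginea. The values were 4.0, 4.2, 4.7 and 3.3 in stroma close to follicles, and 4.7, 4.9, 3.7 and 5.4 in interstitial stroma. All theca arrays were again above all others, but the second highest compartment was now tunica albuginea and the lowest was stroma close to follicles. Theca exceeded stroma close to follicles by 3.55 ± 0.33 (11.7-fold, SE, limma adjusted p = 2.8e-07), interstitial stroma by 2.92 ± 0.33 (adjusted p = 3e-06) and tunica albuginea by 2.17 ± 0.33 (4.52-fold, adjusted p = 5.5e-05).

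INHBB encodes the beta B subunit of inhibin B and activin B. Its signal lay between 2.8 and 3.4 in theca, 2.7 and 3.3 in tunica albuginea, 3.0 and 3.9 in stroma close to follicles and 3.2 and 3.7 in interstitial stroma. All 18 values were below the array median, the ranges of the compartments overlapped, and no comparison passed the test. The difference of theca from the mean of the 3 laser-captured compartments was -0.18 log2 units, with a 95% interval of -0.50 to 0.13 (limma adjusted p = 0.35). At such signals the cluster may measure background, and a difference in INHBB was not detectable.

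FST encodes follistatin, the high-affinity activin-binding protein. Its signal ranged from 6.8 to 7.6 with a median of 7.25 in theca. It was 3.8, 3.5, 3.8 and 3.2 in tunica albuginea. The values were 3.4, 3.5, 3.7 and 3.9 in stroma close to follicles, and 4.0, 4.4, 3.7 and 4.3 in interstitial stroma. The gap between the lowest theca array and the highest laser-captured array was 2.4, which was wider than for INHA or INHBA. Theca was higher by 3.61 ± 0.18 than stroma close to follicles (12.2-fold, SE, limma adjusted p = 1.1e-10), by 3.13 ± 0.18 than interstitial stroma (8.77-fold, adjusted p = 8.4e-10) and by 3.66 ± 0.18 than tunica albuginea (12.6-fold, adjusted p = 7.3e-11). All 8 arrays of tunica albuginea and stroma close to follicles were below the array median, so those folds may be lower limits.

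FSTL1 encodes a secreted glycoprotein with a follistatin-like domain that binds activins only weakly. Its signal ranged from 8.5 to 9.0 with a median of 8.7 in theca. It was 8.6, 8.5, 8.7 and 8.5 in tunica albuginea. The values were 7.8, 7.9, 7.8 and 8.0 in stroma close to follicles, and 8.0, 8.1, 8.0 and 7.9 in interstitial stroma. Theca and tunica albuginea overlapped, and both lay above the other compartments without overlap. Theca was higher by 0.86 ± 0.11 than stroma close to follicles (SE, limma adjusted p = 9.3e-06) and by 0.73 ± 0.11 than interstitial stroma (adjusted p = 5.7e-05). The difference of theca from tunica albuginea was 0.16, with a 95% interval of -0.07 to 0.39 (adjusted p = 0.28). The mean of 6 fibroblast markers was also higher in theca (9.35 to 9.75) and tunica albuginea (9.4 to 9.85) than in both kinds of stroma. It was 8.55 to 8.83 in stroma close to follicles and 8.8 to 9.23 in interstitial stroma. The markers were split, with 3 higher and 2 lower in theca than in the laser-captured mean. Over all clusters the shares were 19.6% and 22.2%. By mean signal, COL1A2 and COL3A1 were highest in theca, whereas PDGFRA and DCN were lowest there. The part of fibroblast RNA in the FSTL1 differences was not tested. FSTL3, a further activin-binding protein, lay between 3.0 and 3.2 in theca and between 2.8 and 4.2 in the laser-captured arrays, and none of its comparisons passed the test.

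The receptor genes differed by less. ACVR1B encodes the type I receptor ALK4, through which activins signal. Its signal was 3.3 to 3.6 with a median of 3.5 in theca and 3.9, 3.5, 3.8 and 3.7 in tunica albuginea. It was 4.1, 4.5, 4.3 and 4.2 in stroma close to follicles and 4.1, 4.3, 3.9 and 3.7 in interstitial stroma. Theca was below both kinds of stroma in every array, by -0.79 ± 0.13 against stroma close to follicles (SE, limma adjusted p = 0.00011) and by -0.52 ± 0.13 against interstitial stroma (adjusted p = 0.0045). The difference of -0.24 from tunica albuginea did not pass (adjusted p = 0.15). All theca values lay below the array median, so these differences may be understated. All tunica values lay below it too, and only 1 interstitial array lay above it. The cluster may therefore measure background in those groups as well.

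ACVR2A and ACVR2B encode the type II receptors that bind activins first. ACVR2A lay between 6.4 and 7.3 in theca and between 6.6 and 7.3 in the laser-captured arrays. Its ranges overlapped in all comparisons and none passed the test, with a difference of theca from the laser-captured mean of -0.08 and a 95% interval of -0.35 to 0.20. ACVR2B ranged from 3.9 to 4.3 with a median of 4.1 in theca. It was 4.3, 4.7, 4.5 and 4.3 in tunica albuginea, 4.7, 4.8, 4.9 and 4.3 in stroma close to follicles, and 4.2, 4.5, 4.6 and 4.5 in interstitial stroma. Theca was lower than stroma close to follicles by -0.54 ± 0.13 (SE, limma adjusted p = 0.0044), although the ranges met at 4.3. The other differences of theca were both -0.32 and missed the threshold (adjusted p = 0.082 against interstitial stroma and 0.073 against tunica albuginea).

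TGFBR3 encodes betaglycan, the co-receptor that lets inhibin compete with activin. Its signal was 7.8, 6.8, 7.9, 8.1, 7.5 and 8.1 in theca and 7.0, 8.0, 6.3 and 7.6 in tunica albuginea. It was 8.5, 8.3, 8.2 and 8.4 in stroma close to follicles and 8.2, 8.8, 7.9 and 8.8 in interstitial stroma. Theca and tunica albuginea were spread over more than 1 unit, whereas stroma close to follicles was high in every array and did not overlap with theca or tunica albuginea. The test for any difference among the 4 compartments passed (moderated F test, limma adjusted p = 0.016), but none of the 6 pairs did. The largest were -1.20 ± 0.32 for tunica albuginea against interstitial stroma (SE, adjusted p = 0.076) and -1.12 ± 0.32 for tunica albuginea against stroma close to follicles (adjusted p = 0.063). Both passed without theca replicate 2 (adjusted p = 0.043 and 0.036) and without tunica replicate 2 (adjusted p = 0.03 and 0.025).

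Counted over the 10 members, 4 were higher (INHA, INHBA, FST and FSTL1) and 1 lower in theca than in interstitial stroma, where 14.4% of all clusters were called higher and 14.6% lower. Against stroma close to follicles, 4 were higher and 2 lower, beside 15.4% and 15.6% of all clusters. Against tunica albuginea, 3 were higher and 0 lower, beside 16.3% and 18.1%. Set against the average of all laser-captured compartments, theca had 4 members higher and 2 lower, beside 19.6% and 22.2% of all clusters. These comparisons share the 6 theca arrays. The median difference of the members in that comparison was -0.07, and that of all clusters was -0.04. In the test for any difference among the 4 compartments, 7 of 10 members passed, beside 36.4% of all clusters. INHBB, FSTL3 and ACVR2A were the members that did not.

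The share of calls that were higher in theca depended on the scaling, over all clusters and among the members. With the values as deposited, 46.9% of the clusters called against the laser-captured mean were higher in theca, and with each array's 75th percentile subtracted 33.7% were. The same scaling gave 38.1% in place of 49.7% against interstitial stroma, 35.4% in place of 49.7% against stroma close to follicles and 34.2% in place of 47.5% against tunica albuginea. It moved the median of all clusters against the laser-captured mean to -0.14. No called difference of a member changed its sign under it, but more members were called lower in theca. Against tunica albuginea 5 members passed, with ACVR1B and ACVR2B added as lower (limma adjusted p = 0.046 and 0.023). Against interstitial stroma 7 passed, with ACVR2B (-0.40, adjusted p = 0.037) and TGFBR3 (-0.81, adjusted p = 0.045) added as lower.

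**Figure D2:**
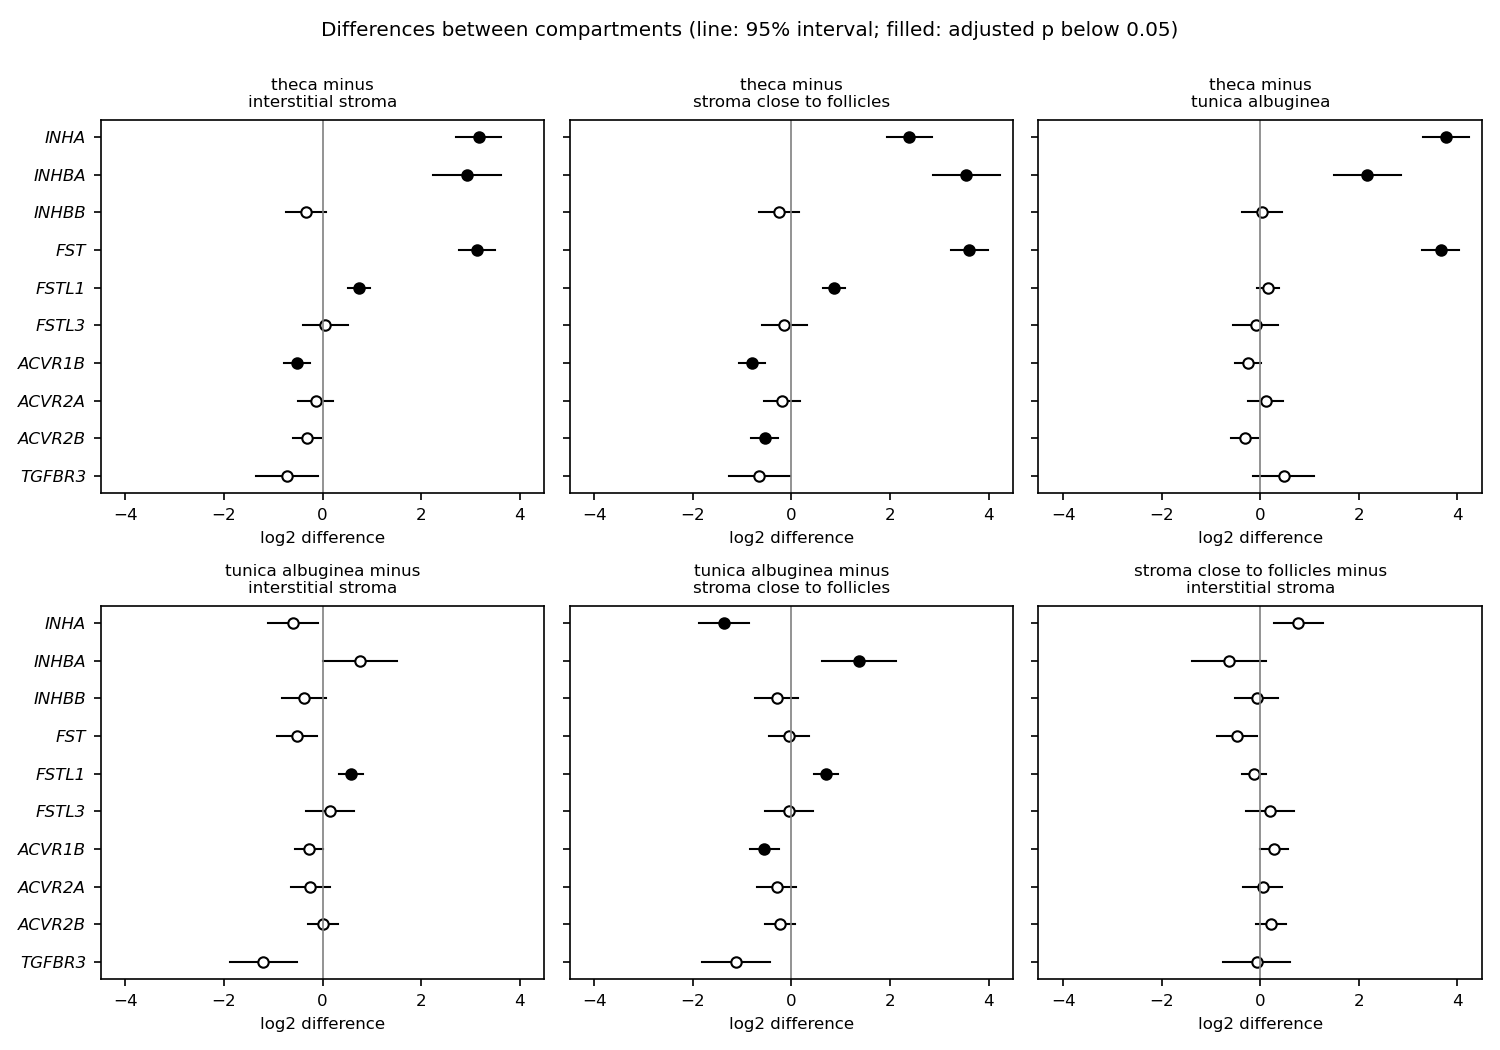
Log2 differences of the 10 genes (rows) in the 6 comparisons of compartment pairs (panels), with 95% intervals on the x axis. Filled points have an adjusted p below 0.05 over all clusters. INHA, INHBA and FST lie beyond 2 in all 3 panels with theca, and INHA and INHBA lie on opposite sides of 0 in the comparison of tunica albuginea with stroma close to follicles.

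Among the laser-captured compartments, tunica albuginea and stroma close to follicles differed most in these genes. INHA and INHBA moved in opposite directions: INHA was lower in tunica albuginea by -1.38 ± 0.24 (SE, limma adjusted p = 0.0027) with no overlap between the arrays, and INHBA was higher by 1.38 ± 0.36 (adjusted p = 0.038) with overlapping ranges. FSTL1 was higher in tunica albuginea by 0.70 ± 0.12 (adjusted p = 0.002) and ACVR1B lower by -0.55 ± 0.14 (adjusted p = 0.031), both without overlap. In all, 2 members were higher and 2 lower, beside 1.85% and 1.95% of all clusters. Of these calls, INHBA was lost in 6 of the fits that left out 1 array, namely replicate 1, 2 or 4 of stroma close to follicles and replicate 2, 3 or 4 of tunica albuginea (adjusted p = 0.072 to 0.11). ACVR1B was lost without replicate 2 or 3 of stroma close to follicles or replicate 2, 3 or 4 of tunica albuginea (adjusted p = 0.058 to 0.11).

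Oocyte transcripts moved with this comparison. The oocyte marker mean was 3.29, 3.17, 3.07 and 3.03 in tunica albuginea and 5.09, 5.49, 3.97 and 4.24 in stroma close to follicles. Of the 7 oocyte markers, 6 were lower and 0 higher in tunica albuginea, beside 1.95% and 1.85% of all clusters. The mean of 13 granulosa markers was 4.85 to 4.96 in tunica albuginea and 4.78 to 4.93 in stroma close to follicles, and of these markers 1 was higher (GJA1, 0.60, limma adjusted p = 0.042) and 0 lower in tunica albuginea. Replicates 1 and 2 of stroma close to follicles had the highest oocyte means. Without them the INHA difference was -1.10 (limma adjusted p = 0.065) and the INHBA difference was 1.43 (adjusted p = 0.18). The ACVR1B difference was -0.53 (adjusted p = 0.17), while FSTL1 kept its call (0.68, adjusted p = 0.039). With all arrays the differences of INHA, INHBA and ACVR1B were -1.38, 1.38 and -0.55. This refit uses fewer arrays, and the calls over all clusters fell from 1017 to 313, so a lost call cannot be laid to oocyte RNA. The part of oocyte RNA in the INHA difference was not tested.

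In tunica albuginea against interstitial stroma, FSTL1 alone passed, with a difference of 0.58 ± 0.12 (SE, limma adjusted p = 0.016). This was 1 member higher and 0 lower, beside 0.945% and 0.575% of all clusters. The FSTL1 call was lost without interstitial replicate 1 or 4 (adjusted p = 0.05 and 0.058) and without tunica replicate 3 (adjusted p = 0.063). The INHBA difference was 0.75 ± 0.36 (adjusted p = 0.39) and the INHA difference was -0.60 ± 0.24 (adjusted p = 0.28). Vessel markers also differed here: the endothelial marker mean was 3.86 to 4.29 in tunica albuginea and 4.44 to 5.65 in interstitial stroma, and its part in the FSTL1 difference was not tested.

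Stroma close to follicles and interstitial stroma did not differ in any member by limma's adjusted p. An unadjusted p under 0.05 was found for 2 members, INHA and FST, beside 2175 of all 26773 clusters. By adjusted p, 0.0336% of all clusters were called higher and 0% lower in stroma close to follicles. INHA was higher in every array of stroma close to follicles than in every array of interstitial stroma, by 0.78 ± 0.24 on average, but its adjusted p was 0.35. FST had a difference of -0.48 ± 0.19 (adjusted p = 0.51) with overlapping ranges. Ordered by mean signal, INHA ran theca, stroma close to follicles, interstitial stroma, tunica albuginea, and after theca no neighbours in that order passed against each other. For INHBA the order was theca, tunica albuginea, interstitial stroma, stroma close to follicles, again with no call between neighbours after theca. FST ran theca, interstitial stroma, stroma close to follicles, tunica albuginea, with the same limit.

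The 6 theca arrays, each from its own animal, allowed the spread between follicles to be read. The SD over theca arrays was 0.24 for INHA, 0.40 for INHBA and 0.29 for FST, and the median SD of all clusters was 0.23. The theca SD of INHBA was larger than that of 82.5% of clusters, that of FST than 65.2% and that of INHA than 52.4%. TGFBR3 varied most among the members, with an SD of 0.49 (larger than 89.6% of clusters) and a range of 1.3. ACVR2A followed INHBA with 0.36. FSTL3 had the smallest SD, 0.075, at signals near 3. Theca replicate 2 was lowest for INHA (7.1), TGFBR3 (6.8) and ACVR2A (6.4), and of the 5 theca markers it was also lowest for CYP17A1 (7.2), LHCGR (8.4) and HSD3B1 (8.1). It was not lowest for INSL3 (10.6), where replicate 5 was, or for CYP11A1 (10.2), where replicate 6 was lowest at 9.2. Theca replicate 6 was lowest for INHBA (6.9) and highest for FSTL1 (9.0).

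Spread was also uneven within the laser-captured compartments. Their SD about the compartment means was 0.63 for INHBA, larger than for 94.7% of clusters, and 0.41 for INHA, larger than for 83.4%. For FSTL1 it was 0.091, larger than for 0.949% of clusters. The median over all clusters was 0.26. INHBA was therefore among the more variable clusters in both kinds of tissue, and FSTL1 among the least variable in laser-captured tissue.

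Because granulosa cells are a known source of inhibin, activin and follistatin, their markers were read in the same theca arrays. The mean of 13 granulosa markers was 5.47, 4.58, 5.10, 4.69, 4.46 and 5.39 in theca replicates 1 to 6. It was 4.85 to 4.96 in tunica albuginea, 4.78 to 4.93 in stroma close to follicles and 4.51 to 4.88 in interstitial stroma. The theca arrays thus spanned a wider range than the laser-captured ones, above and below them. This mean cannot rank granulosa content between the tissues, because some of its markers were bright in laser-captured tissue. CDH2, for 1, averaged 4.45 in theca and 6.725 in tunica albuginea. By mean signal, 9 of the 13 markers lay above the array median in theca, against 5 in each laser-captured compartment. Against the laser-captured mean, 5 of the 13 markers were higher in theca (FSHR, CYP19A1, AMH, HSD17B1 and NR5A2) and 3 were lower (FOXL2, CDH2 and SERPINE2), beside 19.6% and 22.2% of all clusters. CYP19A1 (2.6 to 3.8) and FOXL2 (2.7 to 2.9) were below the array median in every theca array. Both were below it in every laser-captured array as well, so their clusters may measure background. FSHR was 5.2, 3.4, 4.7, 4.1, 3.5 and 5.4 in theca replicates 1 to 6. In the same order AMH was 4.4, 4.6, 4.6, 4.2, 4.4 and 4.1, and HSD17B1 was 4.5, 4.7, 4.4, 4.0, 4.5 and 4.3. Replicate 2 was thus lowest for FSHR but highest for HSD17B1, and the markers did not rank the theca arrays alike.

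Replicates 5 and 2 of theca had the lowest granulosa means. They had INHA at 7.4 and 7.1, INHBA at 7.8 and 7.9, and FST at 7.1 and 7.4, each above every laser-captured array. Since the markers did not rank the theca arrays alike, this mean may not order them by granulosa content. With theca replicates 1 and 6 left out, which had the highest granulosa means, the same counts of members passed in all comparisons (5 against interstitial stroma, 6 against stroma close to follicles and 3 against tunica albuginea). Over the 6 theca arrays the granulosa mean correlated with INHA at Pearson r = 0.747 (exact permutation p = 0.0833, adjusted p over all clusters 0.857) and Spearman rho = 0.88 (exact permutation p = 0.0333, adjusted 0.877). Without replicates 1 and 6, the farthest from the median, r was 0.582. For INHBA r was -0.348 (exact permutation p = 0.531) and rho was -0.058 (exact permutation p = 0.933). For FST r was 0.437 (exact permutation p = 0.372) and rho was 0.441 (exact permutation p = 0.411). By Pearson r, none of the 10 members, and 0 of all clusters, passed the adjusted threshold, and 0 of the members had an unadjusted p under 0.05. The smallest p that 6 arrays allow was 0.00278. With 26766 clusters tested, very many of them would have to reach that p before any could pass. The absence of adjusted calls therefore says little about a link with the granulosa mean. The part of granulosa RNA in the level of INHA in theca was not tested beyond these values.

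**Figure D3:**
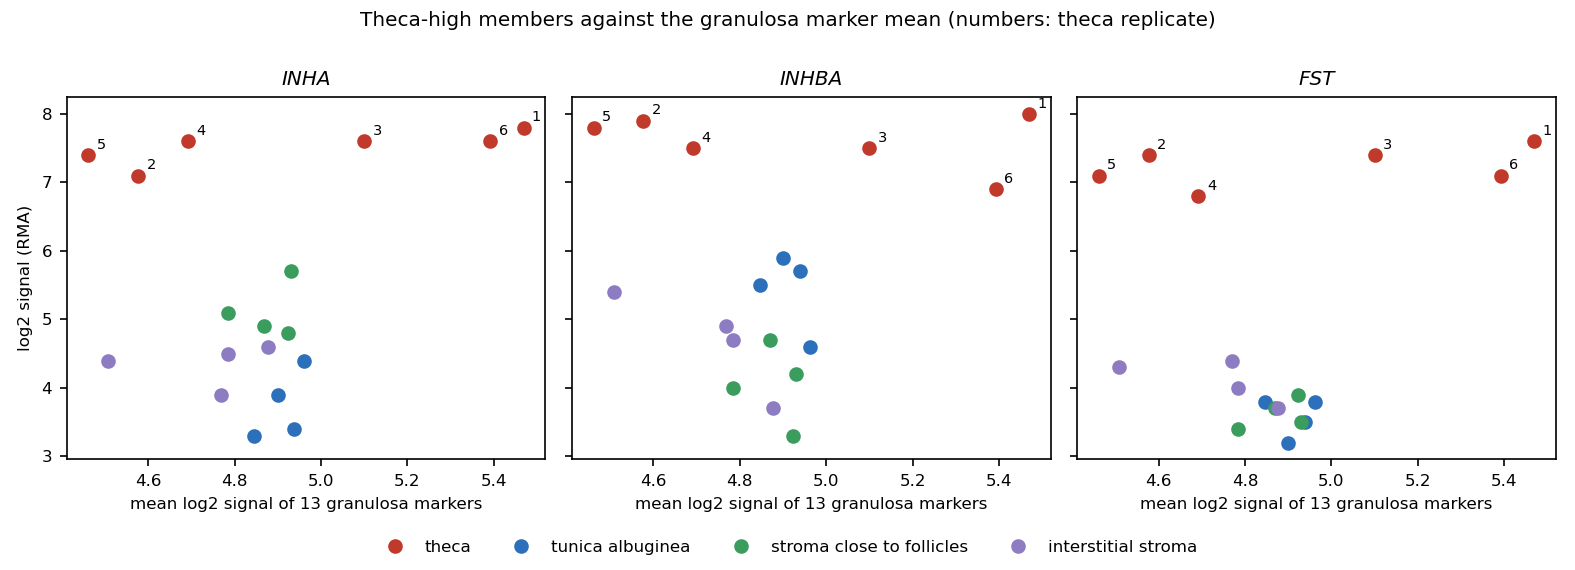
Log2 signal of INHA, INHBA and FST (y axes) against the mean log2 signal of 13 granulosa markers (x axis) on each array, with the theca replicate numbers beside their points. Theca arrays spread from 4.46 to 5.47 along the x axis and remain above all laser-captured arrays along it.

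The other genes of the activin pathway were taken from a list of 40, of which 38 had a cluster of a single symbol. In theca against the laser-captured mean, 2 of the 38 were higher and 16 lower, beside 19.6% and 22.2% of all clusters, and their median difference was -0.19, beside -0.04 for all clusters. By role, 3 of 7 ligands that share these receptors were lower, as were 3 of 7 receptors and co-receptors, 2 of 7 binding proteins of the follistatin family, 1 of 4 processing enzymes, 2 of 4 signal transducers and partners, and 5 of 9 feedback and repressor genes. With so few genes per role, several of these counts lie near the 22.2% of all clusters. The 2 higher genes were ZFYVE9 (0.58 ± 0.14, SE, limma adjusted p = 0.0022), whose product SARA brings SMAD2 and SMAD3 to the receptor, and the inhibitory SMAD7 (0.35 ± 0.12, adjusted p = 0.031). SMAD7 was below the array median in all arrays.

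The feedback and repressor genes held several of the widest gaps. PMEPA1, a feedback inhibitor that binds SMAD2 and SMAD3, ranged from 5.1 to 6.0 with a median of 5.4 in theca, against 8.3, 8.3, 8.0 and 8.1 in tunica albuginea, 7.2, 7.8, 7.7 and 7.6 in stroma close to follicles and 7.8, 7.8, 7.7 and 7.1 in interstitial stroma. Theca was thus lower in every array, by -2.33 ± 0.13 from the laser-captured mean (SE, limma adjusted p = 3.8e-10). The co-repressor genes SKI (-1.39 ± 0.13), TGIF1 (-1.60 ± 0.15) and SKIL (-0.62 ± 0.13) were lower as well. SKI and TGIF1 did not overlap with any laser-captured array, a trait that was not counted over all clusters. SMURF1, a ubiquitin ligase for SMADs and receptors, was lower by -1.01 ± 0.23 with overlapping ranges.

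Among receptors, BAMBI, a decoy receptor without a kinase, ranged from 3.3 to 3.7 with a median of 3.5 in theca. It was 5.5, 6.0, 6.2 and 6.2 in tunica albuginea, 5.4, 5.8, 6.6 and 6.0 in stroma close to follicles and 5.8, 5.6, 5.4 and 6.0 in interstitial stroma. All theca values lay below the array median and all others above it, and the difference from the laser-captured mean was -2.34 ± 0.15 (SE, limma adjusted p = 1.4e-09). BMPR2 (-0.29), a type II receptor mainly for bone morphogenetic proteins, and TGFBR3L (-0.23), a betaglycan-like protein that serves as an inhibin B co-receptor in mouse pituitary cells, were lower by small amounts. TGFBR3L was below the array median in all arrays. ACVR1 was lower only in the comparison with tunica albuginea (-0.56), and whether this differed from the other comparisons was not tested.

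In the follistatin family, TMEFF2, a membrane protein with follistatin domains, was the gene of the list with the widest gap. It ranged from 2.3 to 2.8 with a median of 2.65 in theca. It was 6.4, 6.0, 5.9 and 5.4 in tunica albuginea, 5.3, 5.4, 5.8 and 5.1 in stroma close to follicles and 6.0, 5.8, 6.1 and 6.4 in interstitial stroma. The difference from the laser-captured mean was -3.22 ± 0.14 (SE, limma adjusted p = 8.4e-12), a 9.30-fold lower signal in theca that may understate the difference. WFIKKN2, which binds GDF11 and myostatin, was lower in theca by -0.93 ± 0.15 (adjusted p = 9.2e-05). WFIKKN2 was also the 1 gene of the list that passed between tunica albuginea and interstitial stroma (-1.08 ± 0.22, adjusted p = 0.015). TMEFF1 was higher in theca than in tunica albuginea (0.36), the opposite sign to TMEFF2.

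The remaining lower genes were ligands, a protease and transducers. GDF11, a ligand that follistatin also binds, was lower in theca by -0.64, the pro-protein convertase FURIN by -0.45, SMAD3 by -0.34 and the transcription factor FOXL2 by -0.51. FOXL2 also stands among the granulosa markers, and it was below the array median in all arrays. GDF9 (-0.72) and BMP15 (-0.94), growth factors of the oocyte, were lower in theca as well. Both also stand among the oocyte markers. In tunica albuginea against stroma close to follicles the 3 genes that passed were all lower in tunica albuginea: GDF9 (-1.18 ± 0.24, limma adjusted p = 0.0094), BMP15 (-1.12 ± 0.30, adjusted p = 0.043) and WFIKKN2 (-0.80 ± 0.22, adjusted p = 0.048). Between stroma close to follicles and interstitial stroma 0 of the 38 passed limma's adjusted p, and 4 had an unadjusted p under 0.05, beside 2175 of all 26773 clusters.

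**Figure D4:**
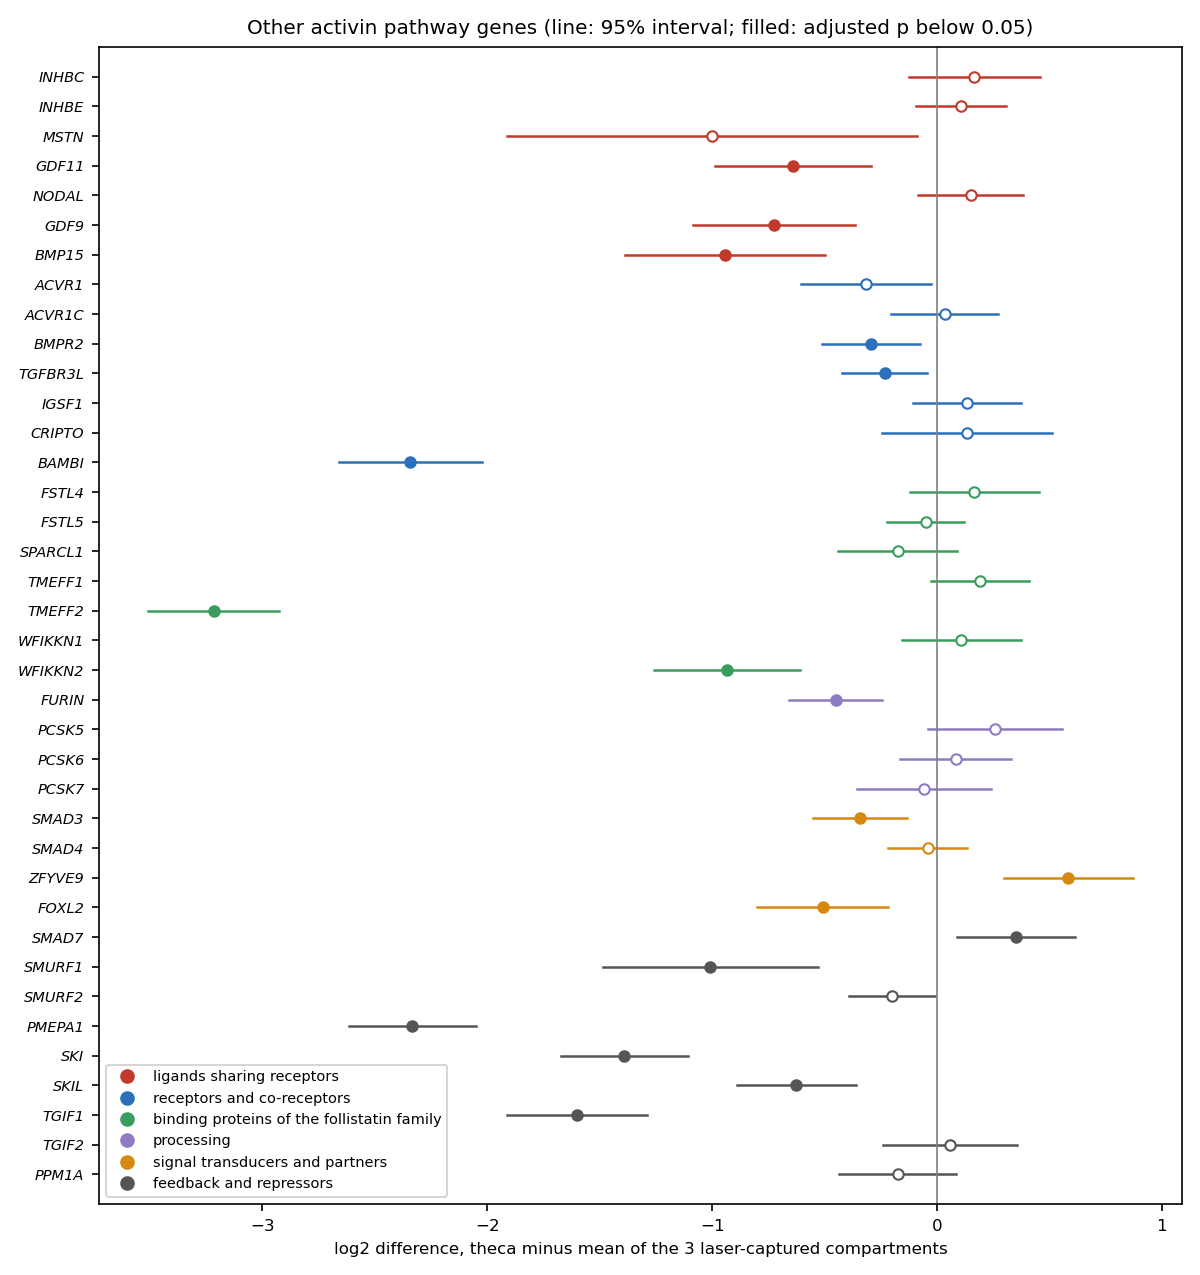
Log2 difference of 38 other genes of the activin pathway (rows, coloured by role), theca minus the mean of the 3 laser-captured compartments (x axis), with 95% intervals. Filled points have an adjusted p below 0.05 over all clusters: 16 lie below 0, led by TMEFF2, BAMBI and PMEPA1, and 2 lie above 0.

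Markers of other cells differed between theca and laser-captured tissue as well. The mean of 8 endothelial markers was 6.54 to 6.81 in theca, against 3.86 to 4.29 in tunica albuginea, 4.39 to 5.06 in stroma close to follicles and 4.44 to 5.65 in interstitial stroma, and 7 of the 8 were higher in theca than in the laser-captured mean. Of 6 markers of smooth muscle and pericytes, 5 were lower in theca and 1 higher. Over all clusters the shares were 19.6% higher and 22.2% lower. Their part in the differences of the members was not tested.

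Some genes ran closely with the members across all 18 arrays. For INHA these were TNNI3 (Pearson r = 0.99), GSTA1 (0.97) and PSAT1 (0.97), and for INHBA they were PDHB (0.96), TPP1 (0.96) and ANXA2 (0.95). For FST they were INSL3, XPO1 and LHCGR, all at 0.98, and for INHBB they were HAX1 (0.79), NUDT10 (0.74) and BLZF1 (0.73). They are the highest of 18000 genes searched, and the arrays share the gap between theca and laser-captured tissue, so these values carry that gap. TNNI3, a cardiac troponin subunit gene, averaged 8.17 in theca, 3.03 in tunica albuginea, 4.97 in stroma close to follicles and 3.67 in interstitial stroma, the same order as INHA.

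After the compartment means were subtracted, other genes came first. The highest were LCAT for INHA (r = 0.85), ALG11 for INHBA (0.83), RRAGB for INHBB (0.84) and GET4 for FST (0.81), with WIPF3 and GTPBP2, LRRC8C and GRPEL2, ZNF18 and LRFN2, and CNTNAP5 and LY6H next. INHA and FST, which correlated at 0.91 over the 18 arrays, had r = -0.27 over the 18 deviations, and INHBA and FST had 0.88 and 0.16. ACVR2A and TGFBR3 kept a positive value, with 0.67 over the arrays and 0.58 over the deviations. These are descriptions over arrays that share their compartments, with no test.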

How the data were processed

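Gene expression was measured on 18 single-colour arrays. Per the submitters' processing notes, the deposited log2 values were made with RMA and Partek 6.5. RMA subtracts background, equalises the distributions of all arrays (which hides a shift shared by most genes) and summarises probes. The authors' values carry 1 decimal. A genome build is not given in the sources used here, and no position is printed.

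Groups came from sample titles and compartment labels. The source label, thecal tissue for all samples, was set aside. Gene symbols came from GEO's annotation of the array, the brightest cluster standing for a gene. A linear model of limma 3.58.1 (R 4.3.3) gave each of the 4 compartments a mean and all 18 arrays a shared spread, with moderated tests of all 26773 clusters. Calls had a Benjamini-Hochberg adjusted p below 0.05 over all of them. The code was tested on simulated data. Theca arrays were correlated with a granulosa marker mean by exact permutation, two-sided. No detection calls were used, and the number of arrays limits the precision.

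For no 2 compartments did all same-numbered arrays deviate together (a correlation over 0.1), so replicate numbers were not taken as pairing. Tunica albuginea and interstitial stroma came closest, at 0.0955 to 0.145 over their 4 same-numbered pairs. All other such correlations lay between -0.0479 and 0.0763. Whether the pools of those 2 compartments shared animals is not given. The members, the pathway list and the marker lists were chosen with earlier results of these data known. All members were named, along with the pathway genes that passed in theca against the laser-captured mean or between laser-captured compartments, those needed to account for a count, and the 3 genes most like INHA, INHBA, INHBB and FST. Alternatives were another scaling, leaving out dim clusters, fits of only the compartments compared, a replicate block, trended moderation, array weights, averaged clusters and each array left out in turn. Leaving out the pairs of arrays with the highest granulosa or oocyte marker means was chosen after seeing the data.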

Additional observations from a re-analysis of the deposited data

Results flagged for a closer look

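In 112 groups of 1 gene in 1 compartment, 40 of them of the members, single arrays were compared with the rest of their group, and chance alone singles out about 1 in 20 such groups. FSTL3 was the 1 member with such an array: stroma close to follicles replicate 4 was at 4.2 and the other 3 at 2.8 to 3.0. In the pathway list, FOXL2 was at 4.0 in stroma close to follicles replicate 1, against 3.4 to 3.5 in the others, and GDF9 was at 3.6 in interstitial replicate 1, against 3.0 to 3.1. ZFYVE9 was at 4.7 in tunica replicate 1, against 5.4 in the others, and at 4.8 in interstitial replicate 3, against 5.4 to 5.5. Interstitial replicate 4 was lowest for BMPR2, at 7.5 against 7.6, a single rounding step, and for PMEPA1, at 7.1 against 7.7 to 7.8.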

How the results depend on the processing

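Over 27 refits, 26 calls of members were lost and 14 gained among 2124 results, and the 23 sign changes among 1866 differences all concerned uncalled values of at most 0.28. The calls of INHA, INHBA and FST in theca held in each refit. With 75th percentile scaling the count of members was 5 for theca against tunica albuginea and 7 against interstitial stroma, where ACVR2B and TGFBR3 were added. With only the compartments compared in the fit, tunica albuginea had 2 members against stroma close to follicles and 0 against interstitial stroma. With the replicate number as a block, tunica albuginea against stroma close to follicles had 2 members, INHBA (adjusted p = 0.07) and ACVR1B (0.078) being lost, and ACVR2B was lost from the test over all compartments (0.07). Without stroma close to follicles replicates 1 and 2 this comparison had 1 member, and ACVR2B was lost for theca against that stroma (0.067). Over all clusters the calls then fell from 1017 to 313 for tunica albuginea and from 8314 to 5802 for theca, each against that stroma. With 1 array left out, members called ranged from 5 to 6 for theca against interstitial stroma, 6 to 6 against stroma close to follicles, 3 to 4 against tunica albuginea and 6 to 6 against the laser-captured mean. The ranges were 0 to 2 for tunica albuginea against interstitial stroma, 2 to 5 against stroma close to follicles, 0 to 0 between both kinds of stroma and 6 to 7 for any difference. TGFBR3 was gained in both tunica comparisons without theca replicate 2 or tunica replicate 2. Over all clusters, calls for stroma close to follicles against interstitial stroma were 9, but 3 without dim clusters, 0 with only those compartments, 5 with the block, 14 with trended moderation and 0 to 152 with 1 array left out. For tunica albuginea there were 407 calls against interstitial stroma, but 204 with only those compartments and 219 to 477 with 1 array left out. Against stroma close to follicles there were 1017, but 434 and 627 to 1022 under the same changes. The causes were not tested beyond the smaller samples these refits use. Signals below 4.1 limit INHBB, FSTL3 and ACVR1B.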

Other observations

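The difference between the INHA and INHBA signals on the same array was looked at after the values were seen, and is given without a test. Since probes of different genes respond differently, only its change between arrays can be read. It was -0.2, -2.3, -2.2 and -2.0 in tunica albuginea, 1.1, 1.5, 0.2 and 1.5 in stroma close to follicles, and -0.2, -1.0, 0.9 and -1.0 in interstitial stroma. In theca it ran from -0.8 to 0.7. Tunica albuginea and stroma close to follicles did not overlap. Interstitial replicate 3 was the highest of its group and alone in it lay within the range of stroma close to follicles.

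Interstitial replicate 3 stood apart in the endothelial marker mean, at 4.44 against 5.46 to 5.65 in the other interstitial arrays. It had the lowest INHBA of its group (3.7) and the highest INHA (4.6, against 4.5 in interstitial replicate 1). What sets this pool apart was not tested.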
